A study of Mus musculus with 8 samples.

Results

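Here 10 genes used as markers of alveolar type 1 (AT1) cells were followed in cultured embryonic mouse lungs with and without IQ1. They are Ager, Hopx, Aqp5, Rtkn2, Akap5, Cav1, Clic5, Emp2, Pdpn and S100a6, taken as a named list, and all 10 were found among the 24304 genes of the array. Each gene is given by its brightest spot, the one of highest mean over the 8 arrays. The lungs came from C57bl/6J embryos at E12.5 and were kept on filters in serum-containing medium, with IQ1 at 10 µM or with vehicle. IQ1 is a small molecule used to reduce the binding of β-catenin to its coactivator EP300. At 9 h there were 3 IQ1 and 3 control arrays, and at 24 h there was 1 IQ1 and 1 control array, each of pooled lungs. The labels name PBS as the vehicle. The methods dissolve IQ1 in DMSO and state that control lungs were given vehicle, as PBS or DMSO. An effect of solvent cannot be told apart from that of IQ1 if the controls did not receive DMSO. The labels name no transgene for any group. The descriptions of the IQ1 samples speak of a global inhibition of FGFR2b, while IQ1 is the only agent named in their treatment.

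AT1 cells are the thin, flat cells that form most of the gas exchange surface of the lung. In the mouse they arise late in gestation from distal epithelial progenitors, whose sisters become the surfactant-making type 2 (AT2) cells, and at the stage cultured here the airway tree is still branching. The markers of AT1 cells are therefore read here as genes, and not as a count of such cells. Several of them are also made by other cells of the lung. Cav1, Clic5 and Emp2 are shared with endothelium, and Pdpn, S100a6 and Cav1 are shared with mesothelium, the outer lining of the lung. The RNA was taken from whole organs, so fewer cells of a type and less RNA per cell cannot be told apart.

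All values are quantile-normalised log2 intensities, and each difference is IQ1 minus control on that scale, where 1 is a doubling. The arrays share a lower quartile of 4.34, a median of 6.29 and an upper quartile of 8.63. Epithelium was present by its markers, with mean levels over the 8 arrays of 10.6 for Epcam, an epithelial adhesion molecule, and 10.72 for Nkx2-1, the lung lineage factor. The E-cadherin gene Cdh1, also an epithelial marker, had a lower mean of 5.43, below the array median. Control replicate 2 at 9 h stood apart, correlating with the other 7 arrays at 0.583 to 0.602 over all spots, against 0.953 to 0.982 among those 7. It was the lowest of the 6 arrays at 9 h for 8 of the 10 AT1 genes and the highest for the other 2. Over all genes it was lowest for 49.5% and highest for 33.4%. Differences at 9 h are therefore given from all 6 arrays and from 5 arrays without it. The paper's figure legend for the IQ1 arrays at 9 h counts 2 controls and does not name them.

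No AT1 gene passed limma's moderated test at 9 h after Benjamini-Hochberg adjustment over all genes. With 6 arrays 0 of 10 passed, beside 0% of all 24304 genes, and with 5 arrays 0 of 10 passed, beside 0.0123% of all genes. At an unadjusted p under 0.05, 1 AT1 gene was higher in the 6-array fit (Cav1; 1.13% of all genes) and 2 were higher in the 5-array fit (Cav1 and Akap5; 4.24% of all genes). None was lower at that level in either fit, against 0.889% and 4.14% of all genes. The median difference of the 10 genes was 0.74 with 6 arrays and 0.51 with 5 arrays, beside medians over all genes of 0.16 and 0.01. Without IQ1 replicate 1 as well as control replicate 2, a choice made after seeing the data, the median was 0.32, beside 0.03 over all genes. Of the 10 genes, 7 had a difference above 0 in each fit, as had 57.2% and 51.6% of all genes. Brighter genes differ from all genes here with 6 arrays. Among the 12152 genes above the median gene in mean level, 72.5% with 6 arrays and 50.2% with 5 had a difference above 0. Their medians were 0.44 and 0.00. The 7 AT1 genes among them had medians of 0.98 and 0.77, with 6 of the 7 above 0 in each fit. In Cav1, Akap5 and S100a6 all 3 IQ1 arrays lay above all 3 controls. That is 3 of 10 genes, against 8.33% of all genes, or 13.1% when control replicate 2 is left out. These 3 genes also had a difference above 0 at 24 h, and 5.68% of all genes met both conditions with 6 arrays. No AT1 gene had all IQ1 arrays below the controls (5.25% of all genes with 6 arrays). Groups of fewer arrays overlap less often over all genes too. The count without overlap in either direction was 5 without IQ1 replicate 1, with Ager above and Emp2 below the controls in addition, where 25.1% of all genes did not overlap. It was also 5 without control replicate 3 (24.4% of all genes), with Pdpn and Rtkn2 in addition. It was 4 without IQ1 replicate 3 (20.1%), with Pdpn in addition, 4 without control replicate 1 (22.8%), with Aqp5 below the controls in addition, and 3 without IQ1 replicate 2 (21.5%).

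At 24 h, with no replicates and no test, 3 of the 10 genes differed by 1 or more in the higher direction (S100a6, Pdpn and Cav1; 5.64% of all genes). None did so in the lower direction (4.97% of all genes). The median of the 10 genes was 0.23, against 0.02 over all genes, and 7 were above 0, as were 51.4% of all genes.

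**Figure D1:**
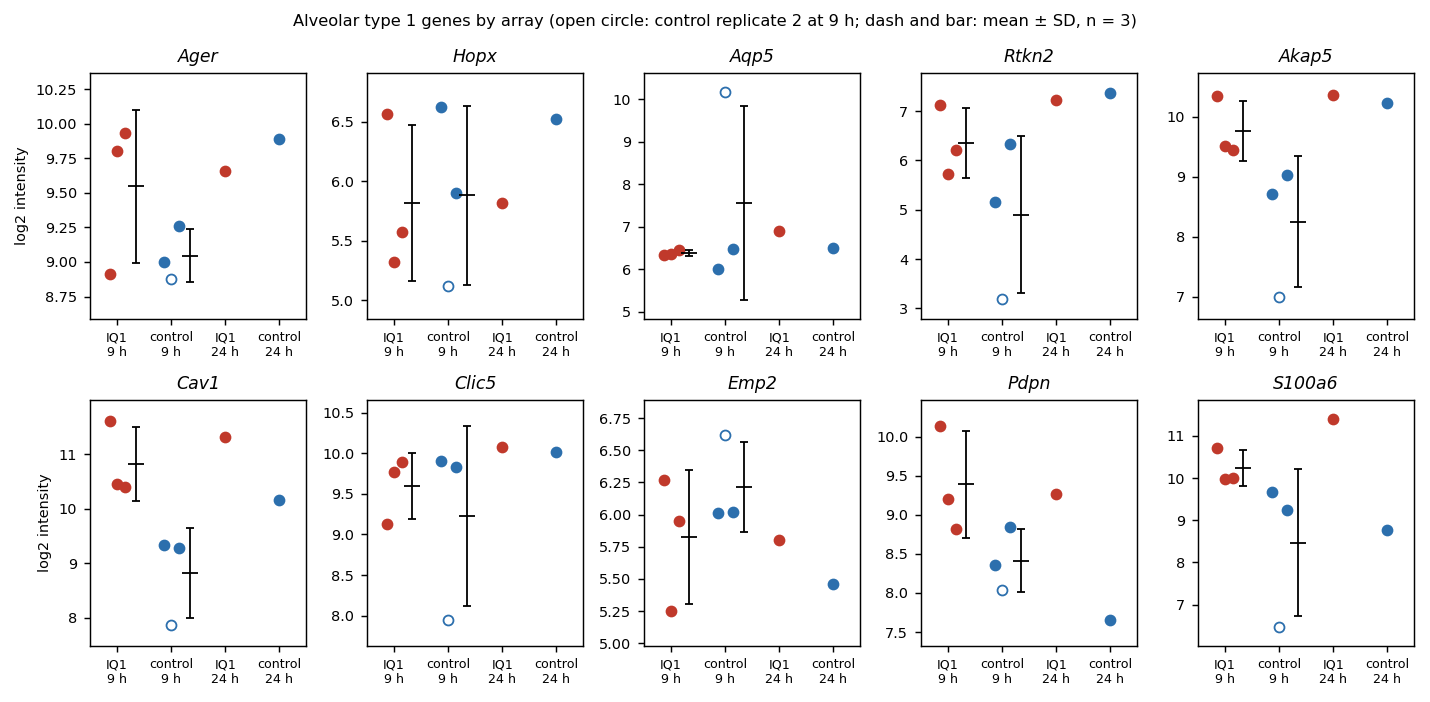
Log2 intensity of the brightest spot of each AT1 gene (vertical axis, a range of its own in each panel) in IQ1 and control lungs at 9 h and 24 h. Each point is 1 array, the open circle is control replicate 2 at 9 h, and dashes with bars give the mean ± SD of 3 arrays; Cav1, Akap5 and S100a6 show all IQ1 points at 9 h above all control points.

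Cav1 had the smallest p of the 10 genes in both fits. It encodes caveolin-1, the coat protein of caveolae, the small membrane pits that are abundant in AT1 cells and in endothelium. Its level at 9 h was 11.61, 10.45 and 10.40 with IQ1 and 9.33, 7.87 and 9.28 in controls, or 10.82 ± 0.69 and 8.83 ± 0.83 (SD, n = 3 each). The lowest IQ1 array stood above the highest control, and IQ1 replicate 1 was the highest of all. The difference was 2.00 (3.99-fold, SE 0.60, adjusted p = 0.73) with 6 arrays and 1.52 (SE 0.41, adjusted p = 0.422) with 5 arrays. The second spot of Cav1 gave 11.04, 9.95 and 9.83 with IQ1 and 8.53, 8.51 and 8.22 in controls, again with no overlap. On this spot control replicate 2 lay between the other controls, and the difference was 1.85 with 6 arrays and 1.90 with 5. At 24 h the brightest spot read 11.32 with IQ1 and 10.16 in the control, a difference of 1.16, and the second spot read 10.93 and 9.53. Without both IQ1 replicate 1 and control replicate 2, a choice made after seeing the data, the difference at 9 h was 1.12 (SE 0.18, adjusted p = 0.283).

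S100a6 had the widest difference of the 10 genes at 24 h. It encodes a small calcium-binding protein, also called calcyclin, found in many epithelial, mesothelial and mesenchymal cells. Its level at 9 h was 10.72, 9.98 and 10.00 with IQ1 and 9.68, 6.47 and 9.24 in controls, or 10.23 ± 0.42 and 8.46 ± 1.74 (SD, n = 3 each). The groups did not overlap, and control replicate 2 lay far below the other controls. The difference was 1.77 (SE 0.89, adjusted p = 0.73) with that array and 0.77 (SE 0.32, adjusted p = 0.595) without it. At 24 h S100a6 read 11.40 with IQ1 and 8.77 in the control, a difference of 2.63 (6.19-fold). The IQ1 array at 24 h was above every array at 9 h, and the control at 24 h was below the 2 controls at 9 h other than replicate 2.

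Pdpn encodes podoplanin, a mucin-like membrane glycoprotein of AT1 cells, mesothelium and lymphatic vessels. Its level at 9 h was 10.14, 9.20 and 8.82 with IQ1 and 8.36, 8.04 and 8.84 in controls, or 9.39 ± 0.68 and 8.41 ± 0.40 (SD, n = 3 each). The groups overlapped by a narrow margin, since IQ1 replicate 3 read just below control replicate 3. The difference was 0.98 (SE 0.49, adjusted p = 0.73) with 6 arrays and 0.79 (SE 0.43, adjusted p = 0.691) with 5 arrays. It was 0.41 without both IQ1 replicate 1 and control replicate 2. At 24 h Pdpn read 9.27 with IQ1 and 7.65 in the control, a difference of 1.62 (3.07-fold), and that control was the lowest of the 8 arrays.

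Akap5 encodes a scaffold that holds protein kinase A and calcineurin at the plasma membrane. Its level at 9 h was 10.34, 9.51 and 9.44 with IQ1 and 8.72, 7.0 and 9.03 in controls, with no overlap, or 9.76 ± 0.50 and 8.25 ± 1.09 (SD, n = 3 each). The difference was 1.51 (SE 0.65, adjusted p = 0.73) with 6 arrays and 0.89 (SE 0.34, adjusted p = 0.572) with 5 arrays. Its second, dimmer spot read 7.76, 6.94 and 6.70 with IQ1 and 6.81, 4.56 and 6.68 in controls, which overlap. At 24 h the brightest spot read 10.36 with IQ1 and 10.23 in the control, so the pair lay 0.13 apart. The control at 24 h exceeded the mean of the controls at 9 h by 1.98, or by 1.36 without control replicate 2.

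**Figure D2:**
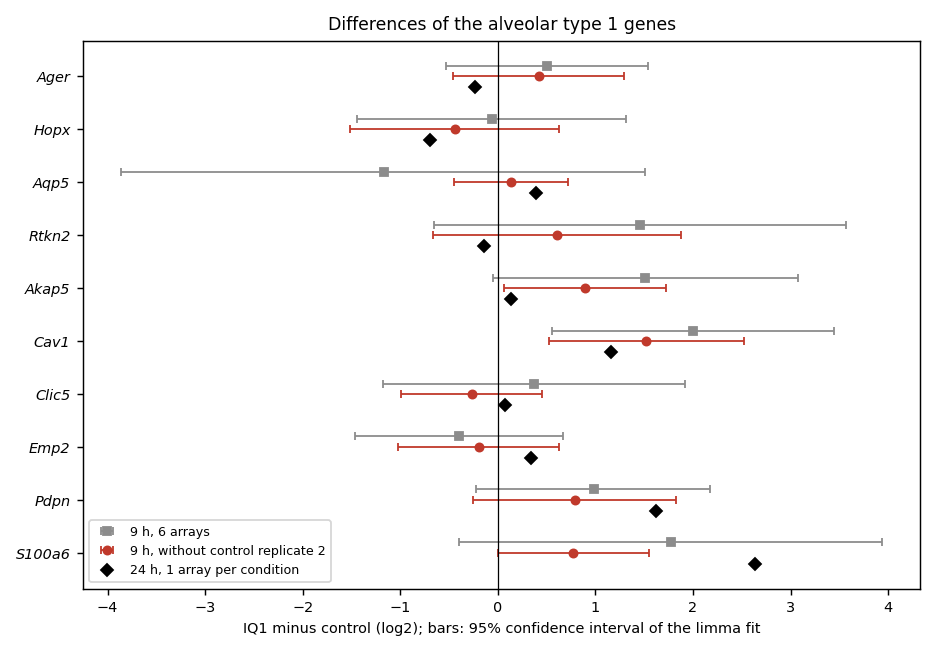
Difference between IQ1 and control lungs in log2 units (horizontal axis) for each AT1 gene, at 9 h with 6 arrays (squares) and 5 arrays (circles), with 95% confidence intervals, and at 24 h (diamonds, single arrays). In the 5-array fit the intervals of Cav1 (0.52 to 2.52) and Akap5 (0.06 to 1.72) lie above 0 before adjustment, and those of Pdpn, Ager, Rtkn2, Aqp5, Clic5, Emp2 and Hopx include it.

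The promoters of these 4 genes, which were chosen after their values were seen and none of which passed, are shown because each had no overlap at 9 h or a difference of 1 or more at 24 h, and because IQ1 acts on a partner of the TCF/LEF factors. Each sequence is a RefSeq window of 300 bases, from 250 before to 50 after the gene start on build GRCm38.p6, written 5′ to 3′ in the direction of the gene. Capitals mark every match to the E-box CACGTG or to the Sp1 motif GGGCGG on either strand.
Cav1, chr6:17306085-17306384, plus strand: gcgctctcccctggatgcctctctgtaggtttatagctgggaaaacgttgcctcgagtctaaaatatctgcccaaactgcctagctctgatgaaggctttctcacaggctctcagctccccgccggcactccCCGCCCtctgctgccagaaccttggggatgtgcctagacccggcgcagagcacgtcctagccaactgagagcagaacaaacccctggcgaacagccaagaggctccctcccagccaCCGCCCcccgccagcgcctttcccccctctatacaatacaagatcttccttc
S100a6, chr3:90612644-90612943, plus strand: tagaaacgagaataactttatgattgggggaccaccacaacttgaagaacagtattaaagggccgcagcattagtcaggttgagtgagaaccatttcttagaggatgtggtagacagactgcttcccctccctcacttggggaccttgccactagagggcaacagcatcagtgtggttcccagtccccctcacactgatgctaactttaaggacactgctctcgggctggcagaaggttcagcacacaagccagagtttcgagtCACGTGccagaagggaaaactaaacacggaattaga
Pdpn, chr4:143299515-143299814, minus strand: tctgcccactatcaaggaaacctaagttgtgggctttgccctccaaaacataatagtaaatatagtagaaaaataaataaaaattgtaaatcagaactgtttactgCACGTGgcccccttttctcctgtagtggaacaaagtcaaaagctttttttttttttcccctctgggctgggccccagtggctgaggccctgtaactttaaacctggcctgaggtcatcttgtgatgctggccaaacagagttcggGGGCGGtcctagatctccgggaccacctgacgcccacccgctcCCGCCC
Akap5, chr12:76324641-76324940, plus strand: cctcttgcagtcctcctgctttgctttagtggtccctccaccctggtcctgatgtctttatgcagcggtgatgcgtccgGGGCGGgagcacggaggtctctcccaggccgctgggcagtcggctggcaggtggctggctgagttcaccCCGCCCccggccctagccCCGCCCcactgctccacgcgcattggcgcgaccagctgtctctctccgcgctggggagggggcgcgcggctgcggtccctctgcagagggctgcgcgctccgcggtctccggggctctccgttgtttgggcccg

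The search covered 11 such windows of 9 AT1 genes, Cav1 and Hopx having 2 starts each, and was made on both strands. None of the 11 windows held CTTTGA, the only form of the TCF/LEF motif searched, which is in 16% of 32851 mouse windows of that length. Other forms of the TCF/LEF motif were not searched, so the windows are not shown to lack such a site. None held the TEAD core GGAATG (14.7%) or the AP-1 motif TGANTCA (7.81%). The E-box CACGTG was in 4 of the 11, among them S100a6 and Pdpn, against 7.15% of all windows. The Sp1 motif was in 6 of the 11, among them Pdpn, Akap5 and the upstream start of Cav1, against 35.7% of all. E-box and Sp1 matches did not overlap in the windows shown. These letters describe the windows only and say nothing of factor binding.

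Ager, Hopx, Aqp5 and Rtkn2 are the members most used to mark AT1 cells in the mature lung, and their differences had both signs. Ager encodes the receptor for advanced glycation end products, a basal membrane protein of AT1 cells. Its level at 9 h was 8.91, 9.80 and 9.93 with IQ1 and 9.00, 8.88 and 9.26 in controls. IQ1 replicate 1 lay within the control range while the other IQ1 arrays stood above it. The difference was 0.50 (adjusted p = 0.73) with 6 arrays and 0.42 (SE 0.36, adjusted p = 0.829) with 5, and it was 0.74 when IQ1 replicate 1 was left out as well. At 24 h Ager read 9.66 with IQ1 and 9.89 in the control, a difference of −0.23. Of the 7 spots of Ager, 5 had a difference above 0 at 9 h in the 5-array comparison, the range being −0.43 to 0.59, and 2 had one above 0 at 24 h.

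Hopx encodes a homeodomain protein without DNA binding, which marks AT1 cells and their progenitors and is also active in heart muscle. Its level was 6.56, 5.32 and 5.57 with IQ1 and 6.62, 5.12 and 5.90 in controls at 9 h, with complete overlap and most values below the array median of 6.29. The difference was −0.06 with 6 arrays and −0.44 (SE 0.44, adjusted p = 0.859) with 5 arrays. At 24 h it read 5.82 with IQ1 and 6.52 in the control, a difference of −0.70.

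Aqp5 encodes a water channel of the apical membrane of AT1 cells and of glands. Its level was 6.34, 6.35 and 6.45 with IQ1 and 6.01, 10.17 and 6.48 in controls at 9 h. Control replicate 2 alone was far above the rest, and it sets the sign of the difference, −1.17 with 6 arrays and 0.13 (SE 0.24, adjusted p = 0.939) with 5. At 24 h the values were 6.89 with IQ1 and 6.5 in the control. The dimmer second spot put control replicate 2 at 4.89, below every other array at 9 h, so the 2 spots of the gene place that array at opposite ends.

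Rtkn2 is selective for AT1 cells within the lung epithelium and is also found in lymphocytes. Its level was 7.13, 5.73 and 6.22 with IQ1 and 5.16, 3.20 and 6.34 in controls at 9 h, with overlap. The difference was 1.46 (SE 0.87, adjusted p = 0.73) with 6 arrays and 0.61 (SE 0.52, adjusted p = 0.829) with 5. It was 0.22 when IQ1 replicate 1 was left out as well. At 24 h the values were 7.22 with IQ1 and 7.36 in the control. Of the 4 spots of Rtkn2, 3 had a difference above 0 at 9 h in the 5-array comparison, the range being −0.29 to 0.98. At 24 h 3 of the 4 had one above 0, the range being −0.14 to 1.46, with the brightest spot the lowest.

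Clic5 and Emp2 are the other genes shared with endothelium, and neither passed. Clic5 encodes a chloride intracellular channel protein tied to the cortical actin network. Its level was 9.13, 9.77 and 9.89 with IQ1 and 9.90, 7.95 and 9.83 in controls at 9 h. The sign of the difference depended on control replicate 2, being 0.37 (SE 0.64, adjusted p = 0.793) with it and −0.27 (SE 0.29, adjusted p = 0.876) without it. At 24 h Clic5 read 10.08 with IQ1 and 10.01 in the control. Its second spot was much dimmer, with 4.54, 5.05 and 3.47 with IQ1 and 5.28, 6.14 and 4.31 in controls at 9 h. On that spot the difference was −0.89 with 6 arrays, −0.44 with 5 and −0.60 at 24 h, so its sign at 9 h did not depend on control replicate 2.

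Emp2 encodes a tetraspan membrane protein found in caveolin-rich membranes. Its level was 6.27, 5.25 and 5.95 with IQ1 and 6.01, 6.62 and 6.02 in controls at 9 h, and 5.80 with IQ1 and 5.46 in the control at 24 h. The difference at 9 h was −0.40 (adjusted p = 0.73) with 6 arrays and −0.19 (SE 0.34, adjusted p = 0.938) with 5. The values of Emp2 lie near or below the array median, and the interval with 5 arrays ran from −1.02 to 0.63.

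**Figure D3:**
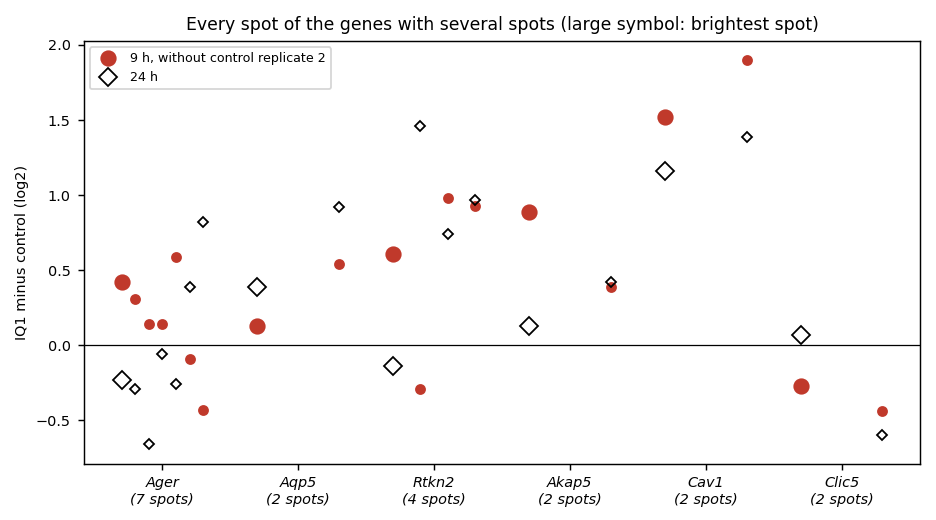
Difference between IQ1 and control lungs in log2 units (vertical axis) for every spot of the 6 AT1 genes with several spots, at 9 h without control replicate 2 (circles) and at 24 h (diamonds), with the brightest spot drawn large. Both Cav1 spots lie above 1 at both times, while the spots of Ager and Rtkn2 fall on both sides of 0.

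Markers of mesothelium and endothelium are set beside the shared genes. Of 9 mesothelial markers, 8 were higher in each fit and at 24 h, with medians of 2.17, 0.93 and 1.52, and none passed after adjustment. Without IQ1 replicate 1 as well as control replicate 2 the median was 0.55. Their mean level was 9.65, 8.55 and 8.37 with IQ1 and 7.89, 5.82 and 7.73 in controls at 9 h, and 8.92 with IQ1 and 7.44 in the control at 24 h. IQ1 replicate 1 was the highest array for the mesothelial mean, and also the highest array at 9 h for Cav1, S100a6, Pdpn, Akap5 and Rtkn2. Those are 5 of the 10 AT1 genes, and IQ1 replicate 1 was the highest array at 9 h for 18.3% of all genes. The retinoic acid enzyme Aldh1a2 differed by 1.53 in the 5-array fit and 2.65 at 24 h, the Wnt amplifier Rspo1 by 1.75 and 1.52, Gpm6a by 1.65 and 1.5, and Upk3b by 1.33 and 2.76. Mesothelin, Msln, had a mean level of 4.11, below the lower quartile. The part of mesothelial RNA in the values of Cav1, S100a6 and Pdpn was not tested.

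Of 16 endothelial markers, 15 were lower in the 6-array fit, all 16 in the 5-array fit and 15 at 24 h, with medians of −2.03, −2.15 and −2.30. Their mean level was 5.71, 5.37 and 5.72 with IQ1 and 7.70, 7.29 and 7.63 in controls at 9 h, and 5.42 with IQ1 and 7.62 in the control at 24 h. One of them, the transcription factor Sox7, fell in the 5-array fit (−3.28, adjusted p = 0.0408). With 6 arrays its difference was −3.45 (adjusted p = 0.627). The mean of Sox7 over the 8 arrays was 5.71, below the median gene. Its mean in IQ1 lungs at 9 h was 4.15, below the lower quartile of the arrays, where weak signals carry more error. In the 5-array fit Cd34 (−3.63), Cdh5 (−2.65), Cldn5 (−2.55) and Pecam1 (−2.32) did not pass (adjusted p = 0.0793 to 0.134). In that fit the AT1 genes shared with endothelium differed by 1.52 (Cav1), −0.27 (Clic5) and −0.19 (Emp2). The part of endothelial RNA in these values was not tested. Of 5 lymphatic markers, which bear on Pdpn, 1 was higher in the 5-array fit, Prox1 with 0.60, and the median was −0.47. Ccl21a, a chemokine gene, differed by −0.53 and Mmrn1, whose level lies below the median gene, by −1.76, and the 6-array and 24 h medians were −0.63 and −0.28. At 24 h 2 of the 5 were higher and 3 lower, with Prox1 at 1.73, Ccl21a at −1.01 and Mmrn1 at −2.98.

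**Figure D4:**
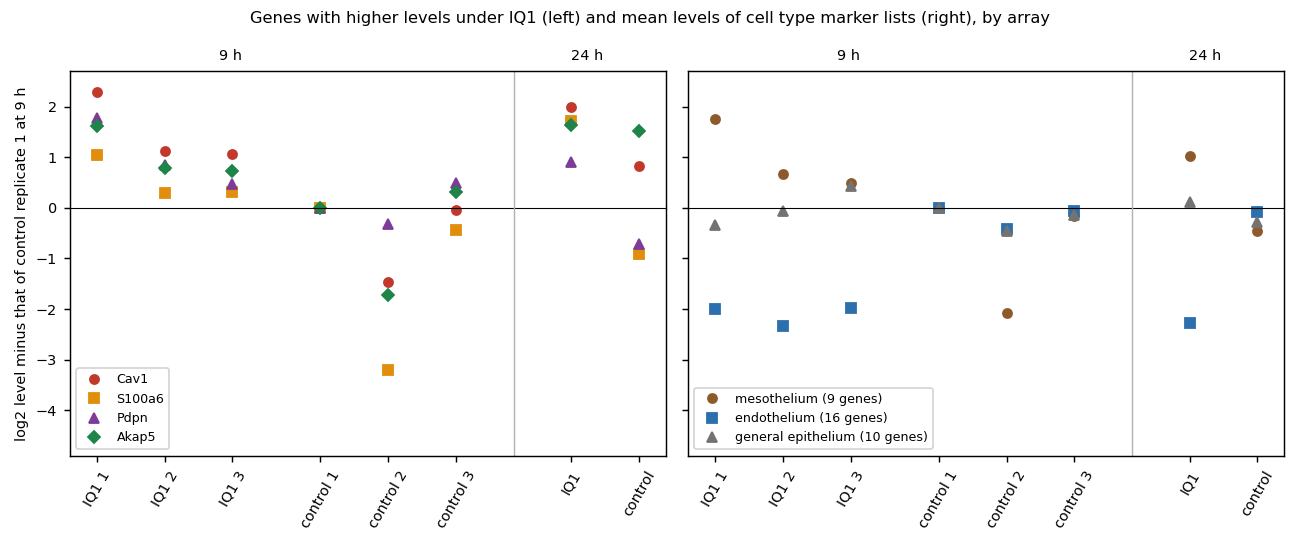
Log2 level of each array relative to control replicate 1 at 9 h (vertical axis) for 4 AT1 genes on the left and for the mean of 3 marker lists on the right, by array (horizontal axis). Mesothelial markers are highest in IQ1 replicate 1, as are Cav1, S100a6, Pdpn and Akap5 among the arrays at 9 h, and endothelial markers are lower in all 4 IQ1 arrays. IQ1 replicate 1 is the highest array at 9 h for 18.3% of all genes.

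Caveolae need further proteins beside caveolin-1, the cavins and EHD2 among them. Of 8 other caveola genes, 6 were higher in the 6-array fit, 7 in the 5-array fit and 6 at 24 h, none of them passing, with medians of 0.41, 0.28 and 0.15, and of 0.13 without IQ1 replicate 1 and control replicate 2. Cavin2 differed by 0.90 in the 5-array fit (adjusted p = 0.613) and 1.06 at 24 h, Cavin1 by 0.34 and 0.57, Ehd2 by 0.22 and 0.49, and the muscle cavin Cavin4 by −0.83 and −0.40. Cav2, the usual partner of Cav1 in caveolae, differed by 0.01 in the 5-array fit and −1.13 at 24 h. Cavin1 had a mean level of 12.61, far above the upper quartile.

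A further list held 15 genes of AT1 cells. Of these, 9 had a difference above 0 with 6 arrays, 12 with 5 arrays and 11 at 24 h, with medians of 0.54, 0.19 and 0.56. The median was 0.30 without IQ1 replicate 1 and control replicate 2. None passed after adjustment. At an unadjusted p under 0.05 there were 2 higher and 1 lower in the 6-array fit, beside 1.13% and 0.889% of all genes, and 4 higher and 2 lower in the 5-array fit, beside 4.24% and 4.14%. Sema3e, a guidance ligand, differed by 1.58 (adjusted p = 0.20) and by 0.56 at 24 h. Keratin 7, Krt7, which mesothelium also makes, differed by 1.44 (adjusted p = 0.308) and 1.91, and the giant scaffold protein gene Ahnak by 1.11 (adjusted p = 0.308) and 0.64. Vegfa, the vascular growth factor that AT1 cells secrete in the late embryo, had the reverse sign, with −1.90 (adjusted p = 0.131) and −1.66.

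The regulators of AT1 fate had a 5-array median of 0.00. AT1 identity depends on Nkx2-1 and on the Hippo effectors Yap1 and Wwtr1 (TAZ), which act through TEAD factors. Of 9 regulators, 7 were higher in the 6-array fit, 5 in the 5-array fit and 6 at 24 h, with medians of 0.43, 0.00 and 0.25 and none passing. The median was 0.14 without IQ1 replicate 1 and control replicate 2. Yap1 differed by 0.00 in the 5-array fit and 0.17 at 24 h, Wwtr1 by −0.42 and −0.79, Nkx2-1 by −0.21 and −0.77, Tead3 by 0.70 and 0.33, Tead4 by 0.26 and 0.59, and Gata6 by 0.63 and 1.01. Of 7 targets of YAP and TAZ, 6 were higher in each fit and all 7 at 24 h, with medians of 1.24, 0.48 and 0.66, and none passed. Without IQ1 replicate 1 and control replicate 2 the median was 0.19. The matrix protein gene Ccn1 differed by 0.92 in the 5-array fit (adjusted p = 0.473) and 1.71 at 24 h, Amotl2 by 1.14 (adjusted p = 0.508) and 0.84, Ccn2 by 0.51 and 0.61, and the kinase gene Lats2 by 0.48 and 0.88.

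Most AT2 markers, which stand for the sister fate, were below 0 in the 5-array fit. Of 12, 8 were higher in the 6-array fit, 3 in the 5-array fit and 6 at 24 h, with medians of 0.39, −0.34 and −0.22. Sftpc, the surfactant protein C gene, differed by −0.91 (adjusted p = 0.395) and by −2.37 at 24 h, Lpcat1 by −0.66 and −0.48, Lamp3 by −0.35 and −0.51, and Cebpa by −0.26 and 0.04. Among AT2 markers below the median gene in level, Sftpa1 differed by −2.45 in the 5-array fit (adjusted p = 0.0793) and −0.66 at 24 h. Its mean level was 4.41, near the lower quartile. Lyz2 had the reverse sign, with 1.64 (adjusted p = 0.458) and 1.30. No AT2 marker passed, and the difference between the AT1 and AT2 lists was not tested. Of the general epithelial markers, 5 of 10 were higher in each fit and 9 of 10 at 24 h, with medians of 0.14, −0.03 and 0.33. Without IQ1 replicate 1 and control replicate 2, 8 of 10 were higher and the median was 0.18. The keratins Krt8 (1.44 in the 5-array fit, adjusted p = 0.234) and Krt18 (1.16, adjusted p = 0.308), which mesothelium also makes, were the largest among them, while Cldn6 differed by 0.37 and the protease gene St14 by −0.76.

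**Figure D5:**
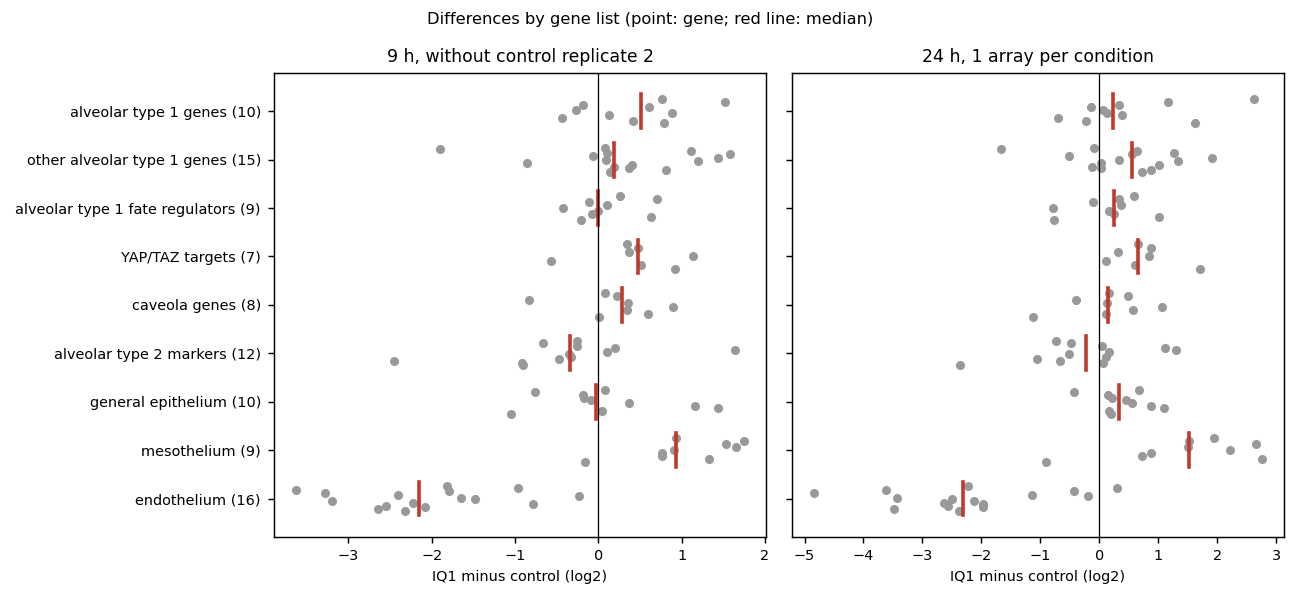
Differences between IQ1 and control lungs in log2 units (horizontal axis) for the genes of 9 lists (rows, number of genes in parentheses), at 9 h without control replicate 2 on the left and at 24 h on the right. Each point is a gene and the red line is the list's median, which for AT1 genes is 0.51 at 9 h and 0.23 at 24 h. The mesothelial medians are 0.93 and 1.52 and the endothelial medians −2.15 and −2.30. The medians of all other lists shown, not only that of AT1 genes, lie between these.

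Levels of the AT1 genes were also compared over time within a condition, as values only, since the times were separate experiments and each 24 h group is 1 array. In IQ1 lungs the level at 24 h minus the mean at 9 h was 1.17 for S100a6, 0.85 for Rtkn2, 0.60 for Akap5, 0.50 for Cav1, 0.11 for Ager and −0.12 for Pdpn. In controls without replicate 2 it was −0.69 for S100a6, 1.61 for Rtkn2, 1.36 for Akap5, 0.86 for Cav1, 0.76 for Ager and −0.95 for Pdpn. With control replicate 2 included the value of S100a6 in controls was 0.31, so its sign there depends on that array.

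The genes whose course was most like that of a member were sought over 7 arrays without control replicate 2, among genes above the median mean level of 6.72. The measure was the root mean square difference of mean-centred log2 levels. For Cav1 the nearest were the mesothelial marker Gpm6a (0.151), the myeloid adaptor Tyrobp (0.166) and Speer4a (0.190), against a range of 2.33 for Cav1 itself. For Pdpn, with a range of 2.49, they were Ccdc92 (0.189), Podxl (0.203) and Sema3d (0.214). For S100a6, with a range of 2.63, they were Gm10220 (0.333), the keratin gene Krt19 (0.335) and the claudin gene Cldn10 (0.349). For Akap5, with a range of 1.64, they were Olfr1372-ps1 (0.108), 9030622O22Rik (0.179) and Pts (0.234). Ager, Clic5 and Aqp5 varied less, with ranges of 1.02, 0.95 and 0.88. The nearest genes were Setdb2 (0.080), Casq1 (0.125) and Hk1os (0.150) for Ager, Lrrc19 (0.064), Cfap74 (0.065) and Itpkb (0.065) for Clic5, and Fam118a (0.058), Ccne1 (0.085) and Pou2f2 (0.086) for Aqp5.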

How the data were processed

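Per the methods, RNA of whole lungs was amplified as cDNA, Cy-labelled and hybridised to Agilent 60-mer arrays. The authors deposited log2 intensities per spot, after NormExp background correction on negative control spots and quantile normalisation with limma. The base of the logarithm was taken from the value range, 2.49 to 16.0. Quantile normalisation gives all arrays 1 distribution, so each difference is relative to the other genes, and amplification adds error to weak signals. No scanner files entered the work, and the number of arrays limits the precision.

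Of 62976 spots, 43941 had 1 gene name, updated through RefSeq where it matched, none had several and 19035 had none. Of the named spots, 8 lacked a value on some array and were dropped. The brightest spot per gene gave 24304 genes, of which 12152 lay above the median gene mean of 6.72. IQ1 and control arrays at 9 h were compared by the moderated two-sided test of limma 3.58.1 under R 4.3.3. Benjamini-Hochberg adjustment was made over all genes at 0.05. The step was also run on simulated data, whose outcome is not given here. That run therefore does not show what the fits reported here could detect. Replicates are biological per the labels. The 24 h arrays had no test. All 10 AT1 genes are named. From each other list the 4 genes of largest difference in the 5-array fit above the median gene, and any that passed, are named (fewer where fewer lay above it), and further genes in the text were chosen after their values were seen. The genes and lists were chosen with earlier results of these data known. Alternatives were leaving out each array, a replicate block, array weights, a dim-gene filter, another variance prior, other spot rules and no moderation.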

Additional observations from a re-analysis of the deposited data

How the results depend on the processing

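No AT1 gene passed under any alternative run. The smallest adjusted p was 0.0538, for Cav1 in the 5-array fit with an intensity trend and robust prior, a setting chosen after seeing the data, and over all alternatives that of Cav1 ran from 0.0538 to 0.889. Over all genes 0 passed in the main analysis, with 274 higher and 216 lower at an unadjusted p under 0.05. Array weights gave 233, and without control replicate 2 there were 3, the range over single arrays left out being 0 to 3. With that array left out, 31 passed above the median gene, 139 with the trend and robust prior and 9 with the mean over all spots, while 0 passed without moderation and 0 when IQ1 replicate 1 was left out too, these settings being added after seeing the data. The median of the AT1 genes at 9 h was 0.51 to 0.93 over single arrays left out, 0.32 without IQ1 replicate 1 and control replicate 2, and 0.11 with the mean over all spots. The count without overlap was 3 to 5 with 1 array left out, where 20.1% to 25.1% of all genes did not overlap, or 13.1% in each direction without control replicate 2.

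Signs turned for Aqp5, Clic5 and Hopx at 9 h, in 18 of 174 values over all alternatives. The replicate block, the dim-gene filter, the other prior and the fit without moderation cannot change a difference. Many of the 174 values, and some of the 18, therefore repeat another fit, and the share is no measure of stability. Over single arrays left out, with IQ1 replicate 1 and control replicate 2 left out together included, Aqp5 ran from −1.95 to 0.15, Clic5 from −0.27 to 0.71 and Hopx from −0.82 to 0.31. Aqp5 became 0.22 with array weights, 0.13 to 0.15 with control replicate 2 left out alone, with IQ1 replicate 1, with the dim-gene filter, with the other prior or without moderation, and 0.34 with it left out and the mean over spots. Clic5 became −0.11 with array weights, −0.26 with the mean over spots, −0.27 without control replicate 2 (also with the filter, the other prior or no moderation), −0.03 without IQ1 replicate 1 as well, and −0.36 with it left out and the mean over spots. At 24 h the mean over spots turned Clic5 to −0.26 and Rtkn2 to 0.76. The cause was not tested.

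With the replicate number as a block 0 genes passed. The median stayed at 0.74, which such a block cannot change, since each number has 1 IQ1 and 1 control array. Deviations of same-numbered arrays from their group means correlated at r of −0.004 to 0.015. Of 3 IQ1 arrays, 1 correlated best with the control of its own number. Control replicate 2 entered the control mean and so every control deviation, so these values cannot show whether the arrays were paired. The numbers were not taken as pairs. The block without control replicate 2 was not run.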

Other observations

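Among the spots not used for the comparison, 2 of the 4 spots of Rtkn2 were low at 9 h and high at 24 h in both conditions. The first read 3.52, 4.16 and 4.28 with IQ1 at 9 h and 8.59 at 24 h, and 2.85, 6.90 and 3.15 in controls at 9 h and 7.85 at 24 h. The second read 3.96, 4.29 and 4.26 with IQ1 at 9 h and 8.32 at 24 h, and 3.03, 3.85 and 3.45 in controls at 9 h and 7.36 at 24 h. All 3 IQ1 arrays at 9 h lay above all controls on the second of these, and on the first only when control replicate 2 was left out. Both spots list the same transcript, and all 4 spots of Rtkn2 were named through the listed symbol. The brightest spot of Rtkn2 read 7.22 with IQ1 and 7.36 in the control at 24 h.

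Lists that bear on other sites of expression had these values. Of 8 cardiac muscle genes, which bear on Hopx, 5 were higher in each 9 h fit and 7 at 24 h, with medians of 0.33, 0.37 and 0.86, and Actc1 differed by 0.79 in the 5-array fit and 1.51 at 24 h, and Nppa by −0.50 and 0.17. Without IQ1 replicate 1 and control replicate 2 the cardiac median was 0.18. Of 8 leukocyte genes, 7 were higher in the 6-array fit, 6 in the 5-array fit and 6 at 24 h, with medians of 0.78, 0.55 and 0.57, and Tyrobp differed by 1.38 and 1.30, Aif1 by 1.00 and 0.41, Fcer1g by 0.67 and 0.94, and Ptprc by 0.19 and 0.10. Of 8 mesenchymal genes, 8, 4 and 3 were higher, with medians of 0.19, 0.02 and −0.14, and Pdgfra differed by −0.65 and −0.84, Fgf10 by −0.51 and −0.40, Tcf21 by 0.49 and 0.61, and Col1a1 by 0.38 and 0.81. None of these genes passed after adjustment in limma's moderated test.

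The spots of Ager differed most in control replicate 2, where they ran from 3.57 to 11.4. The 2 brightest spots of Ager read 8.88 and 6.13 there, and the fourth brightest read 11.40, against 6.95 to 7.41 in the other arrays at 9 h.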
